A study of Mus musculus with 8 samples.

Results

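The mouse protocadherins were examined in RNA sequencing data from hippocampi of C57BL/6 mice aged 2 months. They were taken by symbol, as every row of the authors' deposited table whose name starts with Pcdh followed by a, b, g or a digit. The rule found 36 of 17171 rows, made up of 1 row of the alpha cluster, 22 of the beta cluster, 1 of the gamma cluster and 12 non-clustered genes. The series compared 4 samples labelled SUMO2-cKO with 4 samples labelled Control. The SUMO2-cKO mice carried the floxed Sumo2 alleles (Sumo2 f/f) together with Emx1-Cre, and the Control mice carried Sumo2 f/f without Cre. Both groups thus had floxed Sumo2 alleles, and Cre itself was present in the SUMO2-cKO group alone. Emx1-Cre acts in the dorsal forebrain lineage, mainly excitatory neurons and glia, so other hippocampal cells keep Sumo2. The labels do not say that samples came from separate animals, so the p-values reflect only how much these 8 samples vary, and that variation may be technical.

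Protocadherins are cell surface proteins of the cadherin superfamily. The clustered genes lie in tandem, and each neuron switches on its own combination of them, which gives neurites a surface identity used for self-recognition. In the alpha and gamma clusters a variable first exon is joined to constant exons shared by the whole cluster, whereas each beta gene is a single exon with its own promoter and no constant part. Promoter choice depends on CTCF, on cohesin and on DNA methylation. The non-clustered genes stand alone in the genome, have larger cytoplasmic tails, and are expressed in particular regions and layers.

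All values are log2 fold changes of SUMO2-cKO over Control from the authors' deposited table, each with a standard error (SE) taken as the fold change divided by the deposited Wald statistic. Genes with an adjusted p below 0.05 there are described as called, with adjustment over all 17171 genes (DESeq2, per the submitters' processing notes). The table also has 8 columns of normalized values, whose names match no sample label. These columns were not used, so no value per sample, overlap of the groups or level is given, and depth is unknown. The targeted gene did not check the labels: in the authors' deposited table Sumo2 stood at 0.42 (SE 0.252, adjusted p = 0.761). Directions below therefore hold for the groups as labelled.

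A set of 9 protocadherins, all of the beta cluster, and the non-clustered Pcdh1 were higher in the samples labelled SUMO2-cKO. In the authors' deposited table, 9 of 22 Pcdhb genes were called higher (40.9%) and 0 lower, where 0.967% of all genes were called higher, 0.53% lower and 1.5% in either direction. At an unadjusted p under 0.05, the Pcdhb genes were 11 of 22, all of them with a positive value, where 1438 of all 17171 genes (8.37%) reached that threshold in either direction. A positive log2 fold change was found for 19 of the 22, against 49.9% of all genes. The median Pcdhb value was 0.30, a 1.23-fold higher level, beside -0.000225 for the whole of the authors' deposited table. The middle of the Pcdhb values, between the quartiles, ran from 0.20 to 0.50. In bulk tissue, more cells with a gene switched on and more RNA per cell cannot be told apart. Markers of oligodendrocytes had a median of -0.43 over 7 genes in the authors' deposited table, with 2 called lower (28.6%, beside 0.53% of all genes). Their part in the Pcdhb values was not tested.

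Of all protocadherins in the authors' deposited table, Pcdhb8 (ENSMUSG00000045876, chromosome 18, 37355121 to 37358604, plus strand, GRCm38) had the largest log2 fold change, 1.61 (SE 0.231, 95% interval 1.15 to 2.06, 3.04-fold, adjusted p = 3.0e-09). It ranked 18 of 17171 genes by p-value and 6 of the 166 genes called higher by fold change. Pcdhb6 (chromosome 18, 37333921 to 37337674) followed at 1.51 (2.85-fold) in the authors' deposited table. Its SE of 0.443 was the widest in the beta cluster after that of Pcdhb1, its interval ran from 0.64 to 2.38, and its adjusted p of 0.0464 lay just under the threshold. These 2 genes lie 2 positions apart, with Pcdhb7 between them.

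The other 7 called Pcdhb genes rose by smaller amounts with narrower errors. In the authors' deposited table Pcdhb18 (chromosome 18, 37489465 to 37494505) was at 0.65 (SE 0.106, 1.57-fold, adjusted p = 3.8e-07) and Pcdhb10 (37411664 to 37414514) at 0.60 (SE 0.121, 1.52-fold, adjusted p = 1.5e-04). By the authors' deposited table, Pcdhb19 (37496991 to 37504128) rose by 0.51 (SE 0.0956, adjusted p = 2.7e-05) and Pcdhb17 (37484795 to 37489454), the gene with the smallest SE of the cluster, by 0.41 (SE 0.0872, adjusted p = 5.3e-04). The remaining called genes were Pcdhb5 (37320381 to 37323915) at 0.47 (SE 0.120), Pcdhb11 (37421418 to 37425836) at 0.43 (SE 0.114) and Pcdhb20 (37504264 to 37507822) at 0.34 (SE 0.0905), with adjusted p-values of 0.0101, 0.0160 and 0.0158 in the authors' deposited table. Leaving Pcdhb6 and Pcdhb8 aside, the called Pcdhb genes thus spanned 0.34 to 0.65.

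Among the 13 Pcdhb genes that were not called, 10 had a positive value, and their median was 0.22 in the authors' deposited table. In the authors' deposited table, Pcdhb14 at 0.22 (SE 0.106) and Pcdhb16 at 0.22 (SE 0.0919) had intervals above 0 but adjusted p-values of 0.490 and 0.356. Pcdhb3 at 0.32 (SE 0.170), Pcdhb21 at 0.25 (SE 0.128) and Pcdhb22 at 0.19 (SE 0.107) had intervals that just reached below 0. Pcdhb2, Pcdhb4, Pcdhb7 and Pcdhb15 lay between 0.15 and 0.28, with intervals that included 0. Pcdhb1 had a value of 0.65 with an SE of 0.676, the widest of the 22, so that its interval from -0.67 to 1.98 covers both a fall and a large rise. The 3 negative values in the authors' deposited table were those of Pcdhb9 at -0.22 (SE 0.134, 95% interval -0.49 to 0.04), Pcdhb13 at -0.07 (SE 0.146) and Pcdhb12 at -0.03 (SE 0.143).

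**Figure D1:**
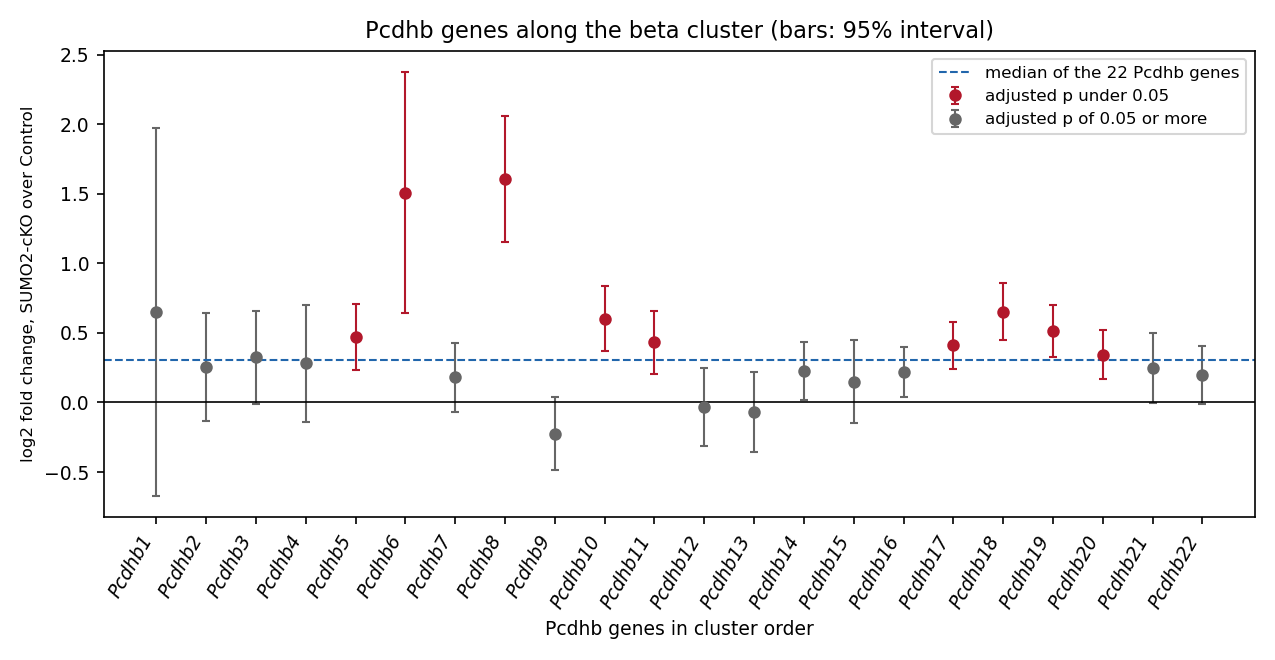
Log2 fold change of SUMO2-cKO over Control (vertical axis, from the authors' deposited table) for the 22 Pcdhb genes in their order along the cluster (horizontal axis); bars are 95% intervals, red points are called genes, and the dashed line is the Pcdhb median of 0.30. Pcdhb6 and Pcdhb8 stand at 1.51 and 1.61, and 3 points lie below 0.

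The change was uneven along the cluster, which spans 260 kb in GENCODE M21. For 5 Pcdhb genes (Pcdhb6, Pcdhb8, Pcdhb10, Pcdhb18 and Pcdhb19) the 95% interval lay wholly above the Pcdhb median, and for 3 (Pcdhb9, Pcdhb12 and Pcdhb13) it lay wholly below it, in the authors' deposited table. Of 21 pairs of adjacent genes, 6 had a 95% interval of the difference that excluded 0. The interval treats the errors of 2 genes as independent although they come from the same libraries. These pairs involved the stretch from Pcdhb5 to Pcdhb10 and the step from Pcdhb11 to Pcdhb12. Pcdhb8 exceeded Pcdhb7 by 1.43 (95% interval 0.91 to 1.94), and Pcdhb9 was below Pcdhb8 by a difference of -1.83 (95% interval -2.35 to -1.31), on the log2 scale of the authors' deposited values. Pcdhb10 in turn exceeded Pcdhb9 by 0.83 (95% interval 0.47 to 1.18), while Pcdhb12 differed from Pcdhb11 by -0.46 (95% interval -0.82 to -0.11). The other 15 pairs had intervals that included 0, which does not show that those neighbours changed alike.

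Read in order, and with stretches marked off after the values were seen, the first 5 Pcdhb genes had a median of 0.32 with 1 called in the authors' deposited table. Positions 12 to 15 had a median of 0.06 with 0 called (DESeq2 in the authors' deposited table; 1 reached an unadjusted p under 0.05). Positions 16 to 20 had a median of 0.41 with 4 of 5 called. Of all 22 Pcdhb genes 40.9% were called higher, beside 0.967% of all genes, and no contrast between these short stretches was tested. Across the 22 genes, log2 fold change and cluster position had a Pearson r of -0.22 and a Spearman rho of -0.19. Without Pcdhb1, Pcdhb6 and Pcdhb8, the values with the widest errors, these were 0.10 and 0.06. The genes share libraries, so these figures are descriptions only.

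Sequence likeness was examined because reads of near-identical genes are hard to assign. Over the 231 pairs of Pcdhb genes, identity of the annotated coding sequences ranged from 56.5 to 89.0%, with a median of 73.7%. The most alike pair was Pcdhb6 and Pcdhb8, the pair with the largest rises, at 1.51 and 1.61 in the authors' deposited table. Whether reads were misassigned between these genes was not tested. Other pairs with high identity stood further apart. Pcdhb7 and Pcdhb9, at 88.9% identity, stood at 0.18 and -0.22, and Pcdhb11 and Pcdhb12, at 87.9%, at 0.43 and -0.03 in the authors' deposited table. Pcdhb4 shares 86.2% with Pcdhb8 and stood at 0.28 (SE 0.214). Pcdhb1, whose closest relative, Pcdhb2, shares 59.9%, is the most distant member.

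**Figure D2:**
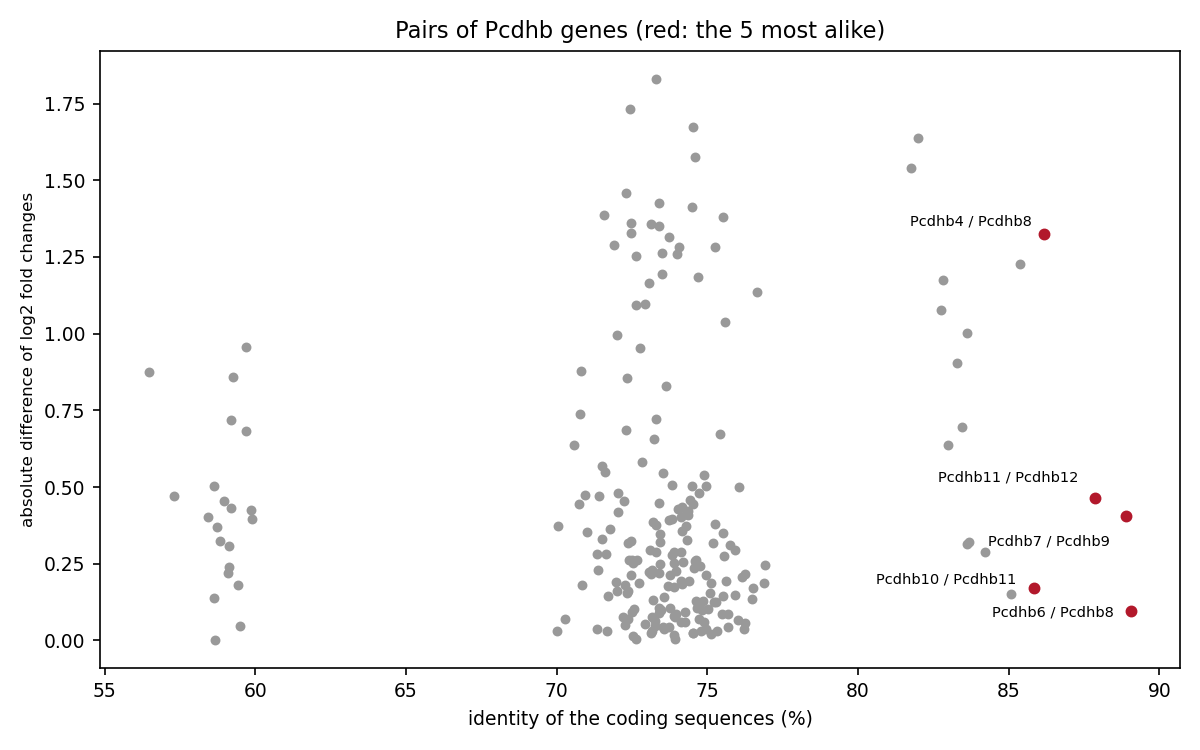
Each point is a pair of Pcdhb genes, with identity of their annotated coding sequences in percent (horizontal axis) and the absolute difference of their log2 fold changes of SUMO2-cKO over Control (vertical axis, from the authors' deposited table); the 5 most alike pairs are named in red. Pcdhb6 and Pcdhb8, at 89.0% identity, lie close to 0, whereas Pcdhb4 and Pcdhb8, at 86.2%, lie far above it.

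Exact copies of stretches of 50 bases were then counted. Of the 50-base windows in the transcripts of each Pcdhb gene, between 0 and 11.99% occur exactly in another annotated gene, with a median of 4.46%. For Pcdhb8 the share was 5.80%, of which 4.61% of all its windows were shared with Pcdhb6, and for Pcdhb6 it was 7.54%. The share was highest in Pcdhb12, at 11.99%, and Pcdhb21, at 11.3%. Over the 22 genes the share had a Spearman rho of -0.03 with the authors' deposited log2 fold change. The sources used here do not give how reads shared by copies were counted, so these shares do not test misassignment of reads. Pcdhb21 and Pcdhb22 overlap on the same strand, over 9.67% of the exonic bases of Pcdhb21 and 6.88% of those of Pcdhb22. For Pcdhb12, 63.5% of the exonic bases lie opposite the antisense gene Gm37446. The libraries are stranded, but the sources used here do not give the strand setting of the counting, so reads of this pair cannot be told apart.

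Features shared by the beta genes were set beside those of other genes. All 22 have a single exon in the longest coding transcript, where 442 of 15080 coding genes do. Among the 420 single-exon coding genes that are not protocadherins, the authors' deposited table called 5 higher (1.19%) and 2 lower, and 48.3% had a positive value. The coding sequences of the Pcdhb genes have 48.3 to 53.1% G and C bases and a ratio of observed to expected CpG between 0.319 and 0.4999. Among 2026 other coding genes within both ranges, the authors' deposited table called 12 higher (0.592%) and 11 lower. Precision was also compared: 2263 genes of the table had an SE between the quartiles of the Pcdhb SEs (0.106 to 0.166), and of these the authors' deposited table called 31 higher (1.37%) and 23 lower. Some called Pcdhb genes, among them Pcdhb6 and Pcdhb8, lie outside that window. Over the full range of Pcdhb SEs (0.0872 to 0.676), 83 of 8785 genes were called higher (0.945%) and 36 lower. Both sets include Pcdhb genes. These are descriptions of sets that differ in many other ways.

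The alpha and gamma clusters are each represented by 1 row. In the authors' deposited table the row named Pcdhac1 stood at 0.08 (SE 0.0448, 95% interval -0.01 to 0.16, adjusted p = 0.759), and the row named Pcdhgc4 at 0.11 (SE 0.0345, 95% interval 0.04 to 0.18, adjusted p = 0.0820). Neither was called. The Pcdhb values ran from -0.22 to 1.61 and so include values this low, and no contrast with the beta cluster is drawn. What these rows count is uncertain. The identifier beside Pcdhac1 in the authors' deposited table, ENSMUSG00000007440, is named Pcdha11 in GENCODE M21. In GENCODE M21 the 14 alpha and 22 gamma genes have separate identifiers, and 34 of these 36 are numbered above every one of the 17171 identifiers of the authors' deposited table. The other 2 are the ones present there. By GENCODE M21, 53.4% of the exonic bases of the row named Pcdhac1 and 37.9% of those of Pcdhgc4 overlap other genes of their cluster on the same strand. Whether these rows hold the reads of a single isoform or of a whole cluster cannot be told from the files. The other 34 alpha and gamma genes were not analysed here.

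**Figure D3:**
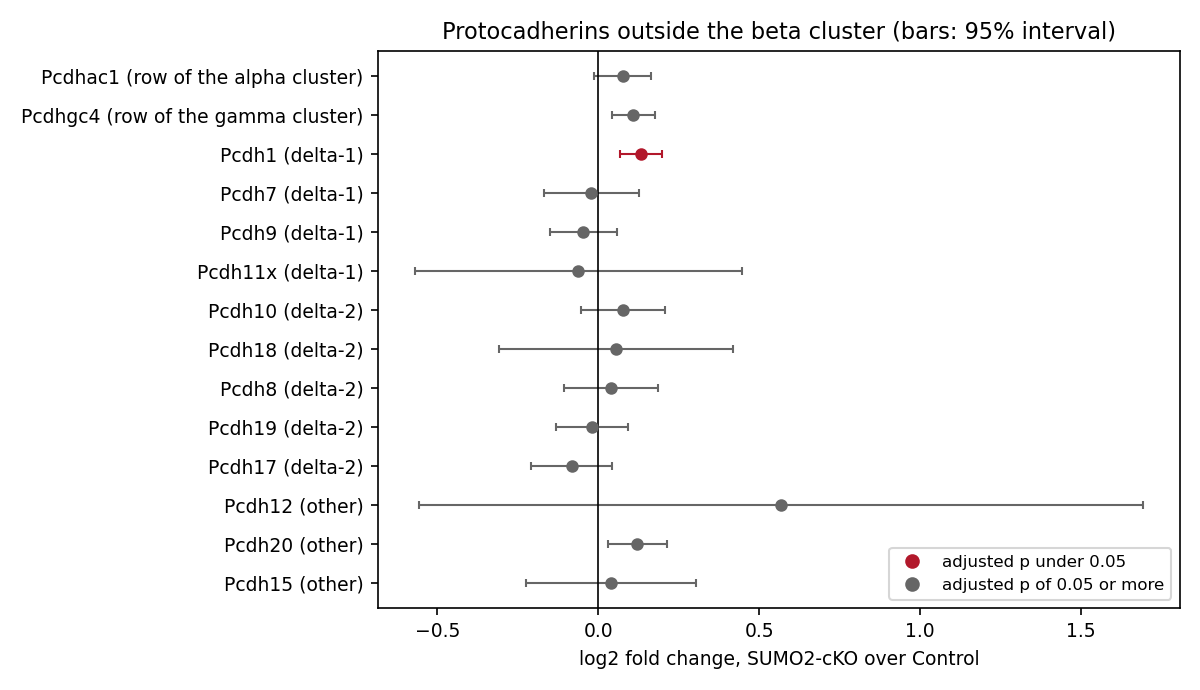
Log2 fold change of SUMO2-cKO over Control (horizontal axis, from the authors' deposited table) for the rows of the alpha and gamma clusters and the 12 non-clustered genes, grouped by class; bars are 95% intervals. Pcdh1, in red at 0.13, is the called gene, and Pcdh12 and Pcdh11x have the widest intervals.

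Among the 12 non-clustered protocadherins 1 was called higher (8.33%) and 0 lower, beside 0.967% and 0.53% of all genes, and the median was 0.04 in the authors' deposited table. At an unadjusted p under 0.05 they were 2, Pcdh1 and Pcdh20, with 7 positive and 5 negative values. The called gene was Pcdh1 (ENSMUSG00000051375, chromosome 18, 38185914 to 38212053, minus strand, GRCm38), a delta-1 protocadherin also found in airway epithelium. Its value in the authors' deposited table was 0.13 on the log2 scale (SE 0.0326, 95% interval 0.07 to 0.20, 1.10-fold, adjusted p = 0.00569). That rise was the 162nd largest of the 166 genes called higher, and the SE was the smallest of all protocadherins. None of its 50-base windows occurs in another gene, as for all 12 non-clustered genes.

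The other delta-1 genes had small negative values in the authors' deposited table: Pcdh7, whose human form binds protein phosphatase 1, at -0.02 (SE 0.0758), Pcdh9 at -0.05 (SE 0.0536) and the X-linked Pcdh11x at -0.06 (SE 0.260). Of the exonic bases of Pcdh7, 21.1% lie opposite 4932441J04Rik, so antisense reads could be included. The 5 delta-2 genes lay between -0.08 and 0.08, with 0 called (DESeq2 in the authors' deposited table; 0 at an unadjusted p under 0.05). Of all genes 1.5% were called in either direction, and 0 of 5 is close to that share. Pcdh17, a synaptic adhesion protein of corticobasal ganglia circuits, was at -0.08 (SE 0.0645), and Pcdh10, which binds the WAVE actin regulator, at 0.08 (SE 0.0669) in the authors' deposited table. Pcdh8, known in rat neurons as an activity-induced protein that drives internalisation of N-cadherin, was at 0.04 (SE 0.0749). Pcdh19, a partner of N-cadherin whose human gene is mutated in an X-linked epilepsy, was at -0.02 (SE 0.0571, 95% interval -0.13 to 0.09) in the authors' deposited table. Pcdh18 was at 0.05 (SE 0.186).

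Among the remaining genes of the authors' deposited table, Pcdh20 stood at 0.12 (SE 0.0473, adjusted p = 0.262). Pcdh15, a component of the tip links of hair cells, stood at 0.04 (SE 0.134). Pcdh12, an endothelial protocadherin, stood at 0.57 with an SE of 0.574, which leaves its direction unresolved in the authors' deposited table. Markers of endothelium, Cldn5, Kdr, Flt1 and Pecam1, had 4 of 4 positive values between 0.13 and 0.34. Of these markers 0 were called (DESeq2 in the authors' deposited table; 2 at an unadjusted p under 0.05), beside 1.5% and 8.37% of all genes. Their part in the Pcdh12 value was not tested. For 8 of the 11 non-clustered genes other than Pcdh1 the interval lies within -0.22 to 0.30, a range that ends at about the Pcdhb median of 0.30.

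The genes around the clusters were compared to see whether the rise extended along the chromosome. The 3 clusters span 912 kb (chromosome 18, 36930184 to 37841873, GRCm38). Within 1 Mb of that span, or inside it, 42 other genes were in the authors' deposited table. Of the 42, 1 was called higher (2.38%, beside 0.967% of all genes) and 0 lower. The called gene was Pcdh1, 344 kb after the gamma cluster. Apart from Pcdh1 and Pcdh12 they were 40, with 0 called (DESeq2 in the authors' deposited table; 1 at an unadjusted p under 0.05), a median of -0.02 and 16 positive values. Of all genes 1.5% were called in either direction, and 0 of 40 is close to that share. The gene at an unadjusted p under 0.05 was Fchsd1 at 0.23 (SE 0.108, adjusted p = 0.478). Between the beta and gamma clusters lie Taf7, a general transcription factor subunit, and Slc25a2, a mitochondrial carrier, which the authors' deposited table gives at -0.01 (SE 0.0961) and -0.95 (SE 0.763). The genes flanking the array were Zmat2, ahead of the alpha cluster, at 0.02 (SE 0.0584) and Diap1, next to the gamma cluster, at -0.05 (SE 0.0471). Further out, Hdac3 was at -0.02 (SE 0.0469). On the whole of chromosome 18 without clustered protocadherins, the authors' deposited table called 7 of 421 genes higher (1.66%) and 1 lower.

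**Figure D4:**
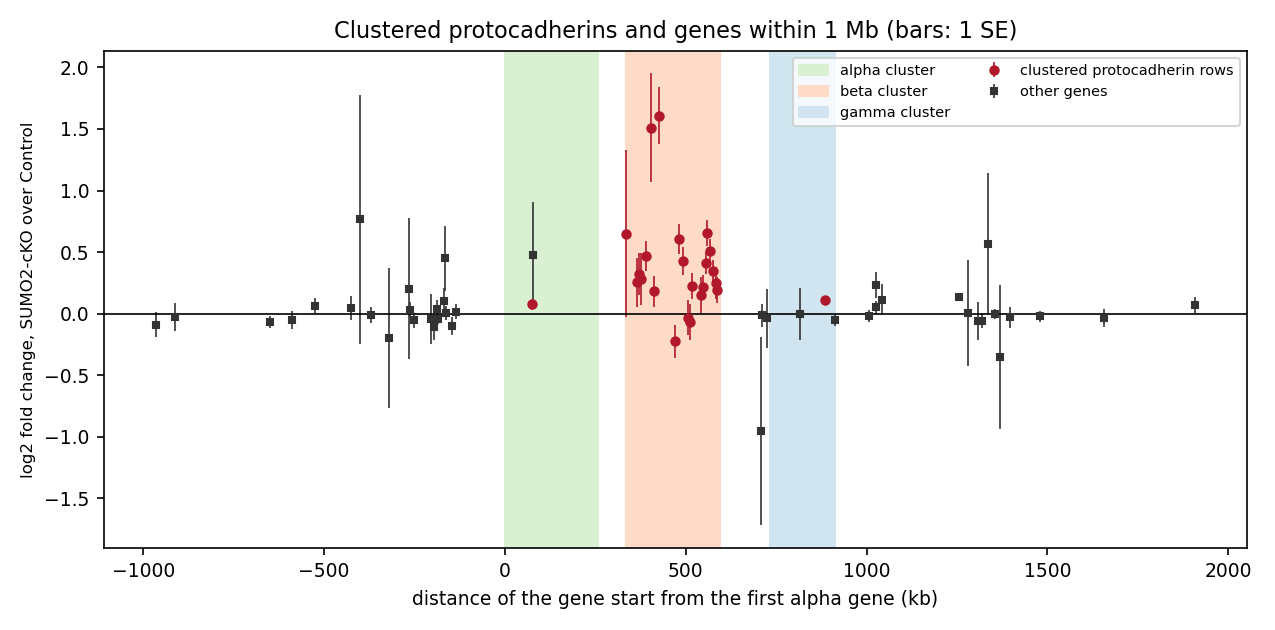
Log2 fold change of SUMO2-cKO over Control (vertical axis, from the authors' deposited table) against distance of the gene start from the first alpha gene in kb (horizontal axis), for clustered protocadherin rows (red) and other genes within 1 Mb (black squares); bars are 1 SE and shading marks the 3 clusters. The red points above 0.25 lie in the beta cluster, and most black squares with short bars lie near 0.

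Chromatin genes were counted as lists, and whether each of them acts on protocadherin promoters was not examined here. The median of 13 genes of CTCF and cohesin was -0.05. Of them 0 were called (DESeq2 in the authors' deposited table; 1 at an unadjusted p under 0.05), beside 1.5% and 8.37% of all genes. Ctcf, which joins protocadherin promoters to their enhancers, was that gene, which the authors' deposited table gives at -0.11 (SE 0.0405, adjusted p = 0.220), and Rad21, a cohesin subunit, was at -0.05 (SE 0.0374). Of 26 silencing and DNA methylation genes 1 was called higher (3.85%, beside 0.967% of all genes) and 0 lower (beside 0.53%), with a median of 0.01. At an unadjusted p under 0.05 they were 3 (11.5%, beside 8.37% of all genes). In the authors' deposited table the called gene was Atf7ip, the partner of the histone methyltransferase SETDB1, at 0.50 (SE 0.0565, adjusted p = 1.6e-15), and a second identifier of Atf7ip stood at 0.44 (SE 0.0611). Setdb1, Smchd1 and Dnmt3b, whose loss is known in mice to alter clustered protocadherin expression, were not called. The authors' deposited table gives Setdb1 at 0.07 (SE 0.0710), Smchd1 at 0.11 (SE 0.0462, adjusted p = 0.355) and Dnmt3b at 0.05 with a wide SE of 0.310. Suv39h1, which ranked 2 of the 26 by p-value, had a negative value there, -0.22 (SE 0.0878, adjusted p = 0.304).

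Genes that act with protocadherins at the membrane were also counted. Of 17 intracellular partners 0 were called (DESeq2 in the authors' deposited table; 5 at an unadjusted p under 0.05, beside 8.37% of all genes), with 13 negative values and a median of -0.03. Among the 5, Nckap1 and Wasf1, subunits of the WAVE complex, stood at -0.09 (SE 0.0372) and -0.10 (SE 0.0400), and the kinases Fyn and Ptk2 at -0.08 (SE 0.0339) and -0.09 (SE 0.0426), in the authors' deposited table. The fifth, Axin1, went the other way, at 0.11 (SE 0.0548). Of 8 surface partners 1 was called higher (12.5%, beside 0.967% of all genes) and 0 lower. It was the axon guidance receptor Robo1, which the authors' deposited table gives at 0.23 (SE 0.0417, adjusted p = 9.4e-06). Of 9 genes of the proteases that shed and cut protocadherins, 0 were called (DESeq2 in the authors' deposited table; 0 at an unadjusted p under 0.05). Of all genes 1.5% were called in either direction, and 0 of 9 is close to that share. Adam10 stood at -0.06 (SE 0.0418) in the authors' deposited table.

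Other cadherins were counted in the same way. Of 19 classical and type II cadherins 0 were called (DESeq2 in the authors' deposited table; 3 at an unadjusted p under 0.05), with 10 positive values and a median of 0.01, beside 1.5% of all genes called in either direction. By the authors' deposited table the 3 were Cdh13 at 0.26 (SE 0.111), the endothelial Cdh5 at 0.28 (SE 0.123) and Cdh19, known from glia, at -0.47 (SE 0.232). Among 17 atypical cadherins and calsyntenins the authors' deposited table called 1 higher (5.88%, beside 0.967% of all genes) and 0 lower, Cdhr1, a photoreceptor cadherin also found in brain, at 0.46 (SE 0.125, adjusted p = 0.0248). Fat2 stood at 1.40 with an SE of 0.505 (adjusted p = 0.182).

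Markers of cell types were read beside these values. Markers of excitatory neurons had 3 of 5 positive values and a median of 0.01 in the authors' deposited table, and those of interneurons 2 of 6 and a median of -0.05, with 0 called in either (DESeq2 in the authors' deposited table; 1 at an unadjusted p under 0.05 in each). Oligodendrocyte markers had 0 of 7 positive values, and 7 reached an unadjusted p under 0.05 (DESeq2 in the authors' deposited table), beside 8.37% of all genes. The 2 called lower (28.6%, beside 0.53% of all genes) were Ermn and Mog. Of 4 oligodendrocyte lineage genes listed for precursors 1 was called lower (25%, beside 0.53%), Olig1 at -0.30 (SE 0.0754). The median of the 4 was -0.19 in the authors' deposited table. Olig2 stood at -0.28 (SE 0.0847), Pdgfra at -0.09 (SE 0.0746) and Cspg4 at 0.06 (SE 0.0930). The 4 thus did not move alike, and their median is not read as a value of precursors. Astrocyte markers had a median of 0.06 over 5 genes and microglia markers of -0.04 over 4, with 0 called (DESeq2 in the authors' deposited table; 2 and 0 at an unadjusted p under 0.05). The 3 choroid plexus markers had negative values with SEs of 0.448 to 0.567, and 0 were called (DESeq2 in the authors' deposited table; 0 at an unadjusted p under 0.05). Whether the tissue expresses these markers at the levels of a hippocampus was not analysed here, since levels per sample were not used.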

How the data were processed

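Stranded mRNA libraries were made from hippocampal RNA, per the labels' protocols. Trim Galore, cutadapt, STAR, HTSeq and DESeq2 are named in the submitters' processing notes, without versions. The sources used here do not give the genome build, annotation or strand setting. The authors deposited a log2 fold change (knockout over wild type), a Wald statistic (a score) and, per gene, the raw and the adjusted p-value, per the file headers. Another 8 columns of values matched no sample label and were not used, so the planned limma fit of values per sample was not run.

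Dividing the log2 fold change by its Wald statistic gave the standard error, and 1.96 of these on either side gave the 95% interval. Benjamini-Hochberg values recomputed over 17171 genes differed from the deposited ones by at most 9.6e-15. This adjustment was tested on simulated data. Positions and sequence features came from GENCODE M21 (GRCm38), in which 16955 identifiers matched. Identity was 1 minus the edit distance over the longer coding sequence. All protocadherins were named, with up to 4 genes of smallest p-value per other list. Setdb1, Dnmt3b, Hdac3, Axin1, flanking genes and the second Atf7ip identifier were added after their values were seen. Members and lists were chosen with earlier results of these data known. Versions were pandas 2.3.3 with numpy 2.4.6 under Python 3.11.15, scipy 1.17.1, and matplotlib 3.10.9 for figures.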

Additional observations from a re-analysis of the deposited data

How the results depend on the processing

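The 10 protocadherins called higher, 9 of them Pcdhb genes, became 4, all Pcdhb, when a fold of at least 1.5 was also required, and 5, all Pcdhb, with Bonferroni or Benjamini-Yekutieli adjustment. These thresholds are stricter by construction. The 166 of all 17171 genes called higher likewise became 56 with the fold, 64 with Bonferroni and 95 with Benjamini-Yekutieli adjustment. With Bonferroni and with Benjamini-Yekutieli the calls of Pcdhb5, Pcdhb6, Pcdhb11, Pcdhb20 and Pcdh1 were lost. An adjusted p under 0.1 gave 11 (Pcdhgc4 added), coding genes only gave 10, values relative to the median of all genes 10, and genes with an SE of at most 0.25 gave 9, since Pcdhb6 was then not tested. In the same order, 217, 158, 166 and 159 of all the genes tested were called higher. The median of the Pcdhb genes ranged from 0.27 to 0.30 and that of the non-clustered genes stayed at 0.04. No paired analysis was possible because no column could be tied to a numbered replicate. Alternatives that need values of single samples were not run, namely the limma fit with other pseudocounts and filters, leaving out each replicate and the replicate number as a block. Depth is unknown, and precision is seen through the SE alone.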
